A study of Mus musculus with 8 samples.

Results

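MCE301 is a mouse colonic epithelial cell line whose donor mice carried a transgene for the large T-antigen of simian virus 40, in a form that is sensitive to temperature. The comparison described here set the cells held for 12 h in 2 mM sodium butyrate against the cells held for 6 h in the same dose, so both groups carried the viral antigen and both had been treated. It used the 2 arrays titled 12 h and the 2 titled 6 h, 4 of the 8 arrays of the series, and all genes represented on the array. The 2 arrays of cells at 24 h entered the fit only for the estimate of spread, and the 2 arrays at 0 h entered neither the contrast nor the spread. The question it answers is which messenger RNAs went on changing after the first hours of exposure. No untreated cells were measured at 6 h or 12 h, so the effects of butyrate and of time in culture cannot be told apart. Whether the replicate arrays stand for separate cultures is not stated, and the p-values therefore measure a spread that may be technical.

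Butyrate is a short-chain fatty acid that gut bacteria make from dietary fibre. Colonic epithelial cells burn it as a fuel, and at higher levels it inhibits histone deacetylases, the enzymes that remove acetyl groups from histones and other proteins. In cultured colon cells it is known for slowing proliferation and for raising markers of differentiation. Passage through G1 depends on cyclin D1 with its kinase partners, which release E2F transcription factors from the retinoblastoma protein, and E2F factors drive the genes of DNA replication. The genes of mitosis are transcribed later in the cycle, many of them from promoters that contain CCAAT boxes.

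Each array gave 1 signal per probe set, and the number of arrays limits the precision. The trimmed mean signal was 500.2 on every array. Over the tested genes, on the log2 scale, the correlation between the 2 arrays of a time was between 0.976 and 0.982. Probe sets left out of the test did not enter this correlation. Of the markers of epithelial cells, 9 of 9 lay above the median signal of the data set, 144.7, on each of the 4 arrays, and their summed signals were 79488 and 92336 at 12 h and 70356 and 83398 at 6 h. Of 10 markers of mature colonocytes, 3 (Krt20, Car2 and Cdx2) lay above that median, whereas Vil1, Slc26a3, Car1 and Car4 were between 2.8 and 37.3 on these arrays. None of the markers of enteroendocrine, Paneth or endothelial cells reached that median on any of the 4 arrays. Goblet cell markers summed to 193 and 155 at 12 h and 267 and 354 at 6 h, and 1 of them, Fcgbp, was above the median at 6 h only, with a change of -0.68 that did not pass the test. Because whole cultures were measured, fewer cells with a transcript and less of it per cell cannot be told apart.

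Between 6 h and 12 h, 190 of 7340 tested genes changed, 106 upward and 84 downward. These are 2.59% of the tested genes, 1.44% upward and 1.14% downward, and called means an adjusted p under 0.05 in limma's moderated test with Benjamini-Hochberg adjustment over all 7340 genes, on the log2(signal + 32) scale. On that scale a change understates that of a dim gene. In 16 of the 190, among them Vim, Itgb6, Cnn1 and Egln3, all 4 arrays lay at or below the filter's signal, and such a gene was tested only through its level at 0 h or 24 h. The change was at least 2-fold for 62 of the genes that rose and 28 of those that fell, and the smallest called change was 0.71 in size on the log2 scale. In all 190 genes the 2 arrays at 12 h lay on 1 side of the 2 at 6 h, but so they did, without regard to the call, in 23.7% of all tested genes upward and 25.5% downward. The median change of all tested genes was -0.003, and 49.6% of them had a positive one. The shares in this paragraph are the background for the counts of each list below.

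The number of calls depended on the processing. With a replicate block, which pairs the arrays of the same number, 233 genes rose and 260 fell, and all 190 genes were among them. Without the filter on low signals 12393 genes were tested and none passed, with 1558 at an unadjusted p under 0.05 and a smallest adjusted p of 0.073 in limma, so every call below rests on that filter. Leaving out 12 h array 1 kept 11 of the 190 calls, leaving out 12 h array 2 kept 20, leaving out 6 h array 1 kept 32 and leaving out 6 h array 2 kept 44. Ccnd1, Klk10 and Mmp13 were called in 14 of 15 alternatives, each lost only without the filter.

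**Figure D1:**
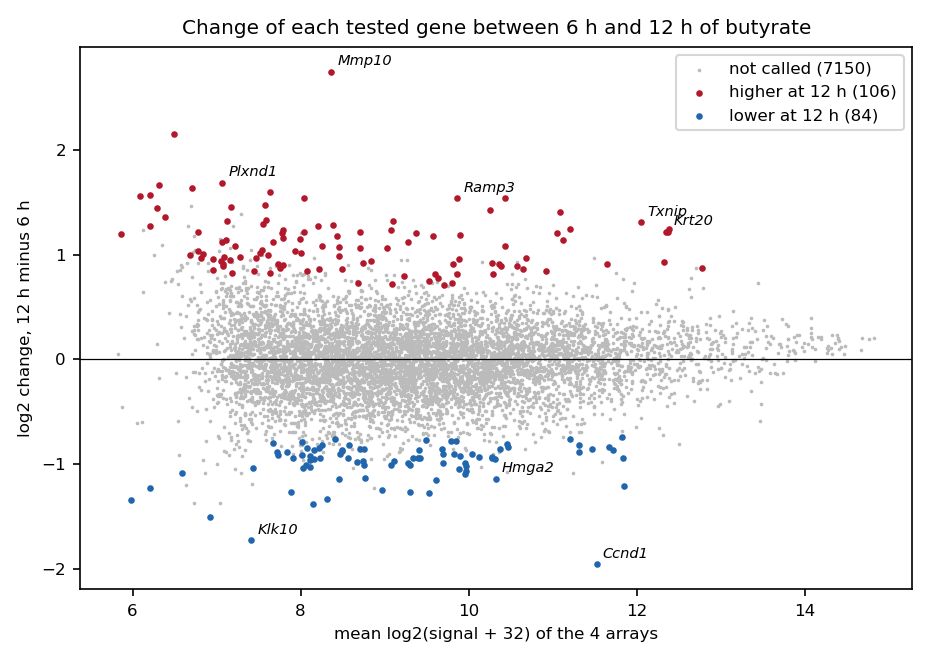
Log2 change of each of the 7340 tested genes, 12 h minus 6 h (vertical axis), against the mean of log2(signal + 32) over the 4 arrays (horizontal axis). Red points are the 106 genes called higher at 12 h, blue points the 84 called lower and grey points the 7150 not called; Mmp10 has the largest rise, at 2.75, and Ccnd1 the largest fall, at -1.96.

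The largest rise was that of Mmp10. In the protease list to which it belongs 3 of 22 tested genes rose and 1 fell, with a median change of 0.16. Mmp10 encodes stromelysin 2 and Mmp13 collagenase 3, enzymes that cut matrix proteins and whose genes lie in a cluster on mouse chromosome 9. Both genes carry, close to the transcription start, the letters TGACTCA or their reverse complement TGAGTCA, the sequence known as the binding element of AP-1, the dimers of Fos and Jun proteins. The 250 bases before each start are shown because these 2 genes had the largest and the third largest rise among called genes with a group mean of at least 200, with the match in capitals (RefSeq, GRCm38.p6, both on the plus strand, Mmp10 at chr9:7502092-7502341 and Mmp13 at chr9:7272264-7272513).
Mmp10: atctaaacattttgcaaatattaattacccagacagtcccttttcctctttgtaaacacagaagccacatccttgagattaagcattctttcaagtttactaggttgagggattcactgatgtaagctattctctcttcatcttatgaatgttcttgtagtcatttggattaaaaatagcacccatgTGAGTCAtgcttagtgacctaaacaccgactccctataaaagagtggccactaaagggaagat
Mmp13: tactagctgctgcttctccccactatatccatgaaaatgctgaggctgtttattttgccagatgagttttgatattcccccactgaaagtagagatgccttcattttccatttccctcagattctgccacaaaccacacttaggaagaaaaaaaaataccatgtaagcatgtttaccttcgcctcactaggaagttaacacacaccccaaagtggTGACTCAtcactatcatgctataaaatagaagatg
The match begins 63 bases before the start of Mmp10 and 35 bases before that of Mmp13. Searched on both strands, these letters occurred in 4.43% of 27025 mouse promoters of the same length, in 3.01% of the 6044 tested genes with an entry and in 3 of 17 such genes of the protease list.

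The signal of Mmp10 was 960.3 and 703 at 12 h, against 52.6 and 158 at 6 h. The 2 times did not overlap, although the 6 h arrays lay far apart. The rise was 2.75 on the log2 scale (SE 0.34, 95% interval 1.98 to 3.52, adjusted p = 0.0129 in limma), and without 12 h array 1 it was 2.54 and no longer called (adjusted p = 0.0585). Mmp13 stood at 319.5 and 308 at 12 h and at 98.8 and 67.0 at 6 h, a rise of 1.60 (SE 0.18, adjusted p = 0.00979 in limma). Prtn3, which encodes the serine protease proteinase 3, averaged 263 ± 37.2 at 12 h and 89.2 ± 20.4 at 6 h (SD, n = 2 arrays each). In the other direction Klk10, a kallikrein-related serine protease, had signals of 52.1 and 71.8 at 12 h, against 272 and 282 at 6 h. Its fall of 1.73 on the log2 scale (SE 0.17, adjusted p = 0.00638 in limma) was the second largest among called genes with a group mean of at least 200. With a replicate block 5 genes of the protease list rose and 2 fell.

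**Figure D2:**
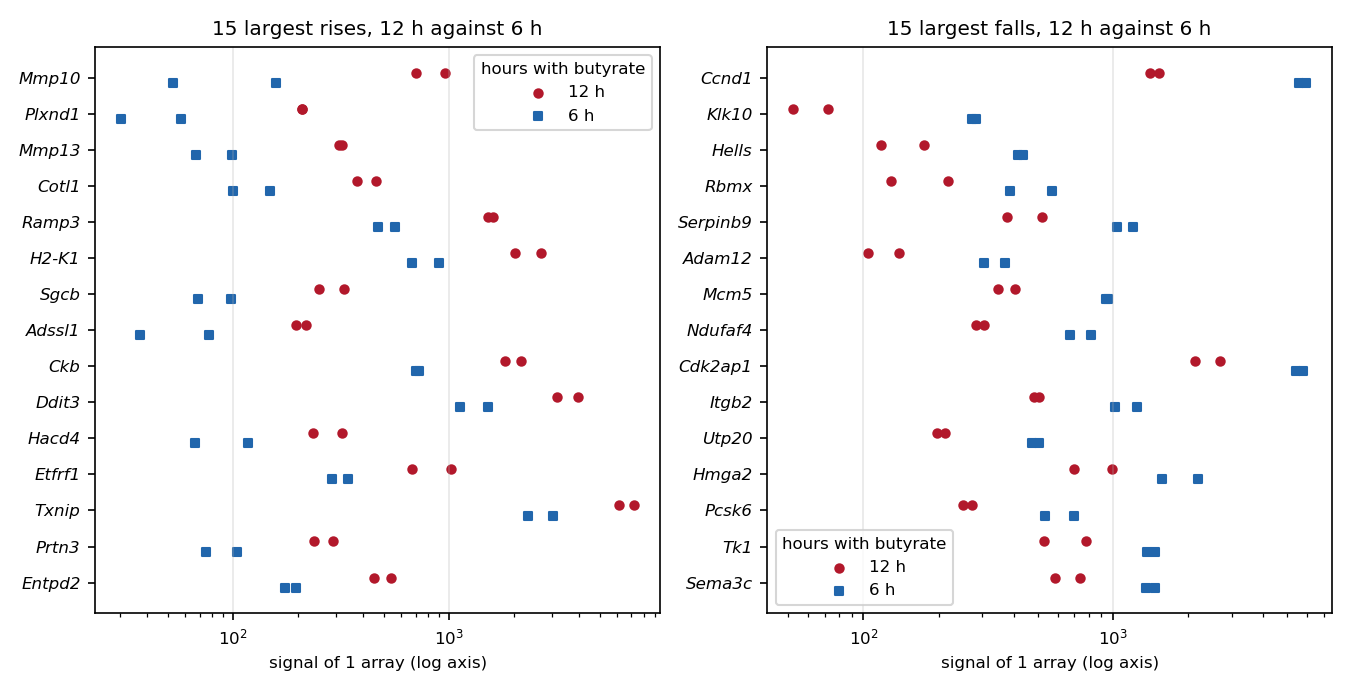
Signal of single arrays (horizontal log axes) for the 15 largest rises (left) and the 15 largest falls (right) among called genes with a group mean of at least 200. Red circles are the 2 arrays at 12 h and blue squares the 2 at 6 h. Only genes whose times do not overlap were eligible for these 30.

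Plxnd1, a receptor for semaphorins, had a signal of 209 and 208 at 12 h, against 57.5 and 30.2 at 6 h, a rise of 1.69 (SE 0.20, adjusted p = 0.00979 in limma). Sema3c, which encodes a secreted semaphorin, moved the other way, with 585 and 741 at 12 h and 1361 and 1482 at 6 h. Ramp3, an accessory subunit that sets the ligand preference of the calcitonin receptor-like receptor, was at 1593 and 1517 at 12 h, against 564 and 468 at 6 h. In none of these 3 genes did the times overlap, which holds for every called gene. Entpd2, an enzyme of the cell surface that breaks down extracellular nucleotides, rose by 1.28. The dystrophin-associated membrane protein gene Sgcb rose by 1.48 and the actin-binding Cotl1 by 1.54. The 4 other probe sets of Cotl1 changed by 1.44, 0.74, 0.57 and 0.51, and none of them was called (adjusted p = 0.0856 to 0.467 in limma). In the list of actin-binding and contractile genes 2 of 36 rose, Cotl1 and the smooth muscle calponin Cnn1, and 1 fell, the tropomyosin Tpm1, at 2845 and 2395 at 12 h against 4954 and 5155 at 6 h.

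Antigen presentation by MHC class I needs a heavy chain and the light chain beta-2 microglobulin, and transcripts of both parts rose. H2-K1, a heavy chain gene, had signals of 2678 and 2025 at 12 h, against 902 and 677 at 6 h, a rise of 1.54 (SE 0.21, adjusted p = 0.0165 in limma). B2m, the light chain gene, had 748 and 699.7 at 12 h and 371.5 and 292 at 6 h, a rise of 1.06 (adjusted p = 0.0365). Its other probe set changed by 0.75 and was not called (adjusted p = 0.192 in limma). B2m was called in 9 of 15 alternatives and not with only the 4 arrays compared. The probe set of H2-K1 is of a kind that can also bind related transcripts, and the heavy chain genes are close copies of each other. Of 8 tested genes of the list H2-K1 and B2m rose and none fell in limma, against 1.44% of all tested genes upward. The 12 h arrays were above both 6 h arrays in 5 of the 8, against 23.7% of all tested genes, and the median change was 0.39. With a replicate block 3 rose and 1 fell, and with only the 4 arrays compared 1 rose. Without 12 h array 1 or without 6 h array 2 the rise of H2-K1 was 1.34 and no longer called (adjusted p = 0.0703 and 0.0571). The chemokine gene Ccl20 also rose, at 223 and 243 at 12 h against 131 and 103 at 6 h.

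The gene with the largest fall belongs to the cell cycle. Ccnd1, which encodes cyclin D1, had signals of 1405 and 1524 at 12 h, against 5576 and 5968 at 6 h. It was 3.88-fold lower at 12 h, a change of -1.96 (SE 0.16, 95% interval -2.31 to -1.60, adjusted p = 0.00237 in limma). Cdk4, its kinase partner, had 1838 and 2339.9 at 12 h and 3638 and 3948 at 6 h, a change of -0.86 (adjusted p = 0.0451 in limma). Cdk4 was called in 6 of 15 alternatives only. Its other probe sets changed by -0.63 and -0.70 and were not called (adjusted p = 0.101 and 0.337 in limma). Ccnd1 and Cdk4 were the 2 genes that fell among 22 tested G1 cyclins, kinases and inhibitors, and none rose. The list's median was -0.20. A replicate block gave 4 falls and 1 rise, and only the 4 arrays compared gave 1 fall. Cdk2ap1, a protein that binds CDK2, fell by 1.21. The inhibitor p21, encoded by Cdkn1a, had 3898 and 2908 at 12 h and 2602 and 2687 at 6 h; its change of 0.35 did not pass the test (95% interval -0.08 to 0.77, adjusted p = 0.358).

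In the list of DNA replication and S phase 7 of 46 tested genes fell and none rose, against a background of 1.14% downward. The change was negative in 43 of the 46, and the median was -0.39. The 12 h arrays lay below both 6 h arrays in 33 of the 46, against 25.5% of all tested genes. A replicate block gave 14 falls, the fit to the 4 arrays alone gave 2, and leaving out 1 of them gave 0 to 2. For 3 of the 7 genes the promoter holds an E2F motif, searched on both strands as TTTCCCGC, TTTCGCGC, TTTGCCGC or TTTGGCGC. Their 250 bases before the start are shown with the match in capitals, since these genes fell together (RefSeq, GRCm38.p6, plus strand, Hells at chr19:38930740-38930989, Mcm5 at chr8:75109259-75109508 and Cdc6 at chr11:98907901-98908150).
Hells: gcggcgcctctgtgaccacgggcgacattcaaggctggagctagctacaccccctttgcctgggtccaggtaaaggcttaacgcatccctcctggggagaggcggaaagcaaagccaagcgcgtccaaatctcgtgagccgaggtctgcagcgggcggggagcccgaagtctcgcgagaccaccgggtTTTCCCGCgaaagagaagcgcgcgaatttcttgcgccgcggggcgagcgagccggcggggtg
Mcm5: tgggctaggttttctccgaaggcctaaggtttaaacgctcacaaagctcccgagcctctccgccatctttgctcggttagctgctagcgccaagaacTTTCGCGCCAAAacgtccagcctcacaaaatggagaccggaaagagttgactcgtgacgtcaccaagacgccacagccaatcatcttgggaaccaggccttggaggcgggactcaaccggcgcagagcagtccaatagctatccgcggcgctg
Cdc6: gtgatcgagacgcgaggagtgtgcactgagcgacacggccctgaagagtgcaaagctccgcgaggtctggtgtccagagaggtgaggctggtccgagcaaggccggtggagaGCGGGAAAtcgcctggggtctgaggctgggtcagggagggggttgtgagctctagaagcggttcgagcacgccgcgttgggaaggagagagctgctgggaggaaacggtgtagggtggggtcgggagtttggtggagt
The match begins 62 bases before the start of Hells and 138 bases before that of Cdc6. In Mcm5 the capitals join 2 overlapping matches on opposite strands, which begin 153 and 149 bases before the start. These motifs were found in 1.91% of all 27025 promoters, 3.97% of the tested genes with an entry and 7 of 40 such genes of the replication list. Tk1, Rrm2, Dbf4 and Slbp, the other 4 that fell, have none of these letters in this window.

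Hells, a chromatin remodeller that acts in replicating cells, had signals of 175 and 117 at 12 h, against 438 and 416 at 6 h, a change of -1.38 (SE 0.24, adjusted p = 0.0276 in limma). Mcm5, a subunit of the replicative helicase, had 346 and 404 at 12 h and 959.7 and 936 at 6 h. Its change was -1.27 (SE 0.16, adjusted p = 0.0141). Cdc6, which loads that helicase onto origins, had 139.8 and 106.5 at 12 h and 241 and 268 at 6 h. In each of these genes, as in every gene called lower, both 12 h arrays were below both 6 h arrays. The enzymes of nucleotide supply followed, with thymidine kinase Tk1 at 530.0 and 782 at 12 h against 1366 and 1478 at 6 h, and the ribonucleotide reductase subunit Rrm2 at 1556 and 2182.2 at 12 h against 3441 and 3441 at 6 h. Dbf4, the activator of the Cdc7 kinase, fell by 0.93 and Slbp, which binds the stem-loop of histone messages, by 0.86. Other helicase subunits had changes of similar size that did not pass the test, namely -1.03 for Mcm4 (adjusted p = 0.0511), -0.86 for Mcm6 (adjusted p = 0.0597) and -0.86 for Mcm3 (adjusted p = 0.0701).

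The list of mitosis and G2/M genes had the lowest median of the lists with 8 or more tested genes, -0.40. Of its 59 tested genes 4 fell and none rose, against 1.14% of all tested genes downward. In 57 the change was negative, and in 44 the 12 h arrays were below both 6 h arrays, against 25.5% of all tested genes. With a replicate block 11 fell and 1 rose, whereas none passed with only the 4 arrays compared or with any 1 of them left out. The promoters of 3 of the 4 are shown for their CCAAT boxes, searched as CCAAT and its reverse complement ATTGG and printed in capitals (RefSeq, GRCm38.p6, Ccnb2 at chr9:70421555-70421804 and Ncapd2 at chr6:125191587-125191836 on the minus strand, Cenpa at chr5:30666636-30666885 on the plus strand).
Ccnb2: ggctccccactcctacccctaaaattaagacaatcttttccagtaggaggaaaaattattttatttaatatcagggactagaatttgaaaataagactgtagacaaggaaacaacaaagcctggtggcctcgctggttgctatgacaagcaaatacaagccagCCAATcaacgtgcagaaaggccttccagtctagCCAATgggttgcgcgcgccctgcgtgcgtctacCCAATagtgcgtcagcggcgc
Ncapd2: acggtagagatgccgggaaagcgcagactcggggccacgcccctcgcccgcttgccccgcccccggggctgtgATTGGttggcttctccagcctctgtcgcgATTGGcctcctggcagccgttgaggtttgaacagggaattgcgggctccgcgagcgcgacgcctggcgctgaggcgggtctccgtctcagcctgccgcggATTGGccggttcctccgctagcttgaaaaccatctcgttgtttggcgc
Cenpa: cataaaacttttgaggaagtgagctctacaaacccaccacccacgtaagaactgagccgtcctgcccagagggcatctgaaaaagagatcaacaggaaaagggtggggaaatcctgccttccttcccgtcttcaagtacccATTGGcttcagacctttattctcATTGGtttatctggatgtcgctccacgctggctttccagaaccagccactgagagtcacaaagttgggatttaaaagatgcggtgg
The boxes begin 87, 54 and 21 bases before the start of Ccnb2, 177, 148 and 48 bases before that of Ncapd2, and 109 and 86 bases before that of Cenpa. At least 1 box was present in 34.5% of all 27025 promoters, in 37.0% of the tested genes with an entry and in 34 of 48 genes (70.8%) of the mitosis list, whether or not they passed the test.

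Ccnb2, the cyclin B2 gene, had signals of 999 and 1059 at 12 h, against 1838 and 1823 at 6 h, a change of -0.81 (SE 0.15, adjusted p = 0.0363 in limma). Ncapd2, a condensin subunit, had 328 and 369 at 12 h and 706 and 760.2 at 6 h, a change of -1.01 (adjusted p = 0.0276). Cenpa, the histone variant of the centromere, had 534 and 752 at 12 h, against 1297 and 1136 at 6 h. Its change was -0.90 (adjusted p = 0.0495 in limma), and it was called in 5 of 15 alternatives only. The spindle motor gene Kif20a, which fell by 1.01, had 373 and 458 at 12 h and 795.5 and 941 at 6 h. The times were separate in all 4 genes, as in every called gene. Securin, encoded by Pttg1, stood against the list with 5332 and 4916 at 12 h and 3377 and 2813 at 6 h, a change of 0.73 that did not pass the test (adjusted p = 0.0686).

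Genes of ribosome biogenesis and MYC targets made a further list with called members in the downward direction. In the list of ribosome biogenesis and MYC targets 4 of 54 fell and none rose, 51 had a negative change and the median was -0.37; a replicate block gave 9 falls. Utp20, a component of the complex that processes the small subunit's RNA, had signals of 198 and 212 at 12 h, against 473.5 and 507 at 6 h, a change of -1.14 (SE 0.16, adjusted p = 0.0181 in limma). Nolc1, a nucleolar chaperone of small RNA-protein particles, had 616 and 502 at 12 h and 1182 and 1099 at 6 h. Heatr1, also of the small-subunit complex, fell by 0.97. The remaining call, Srm, is a spermidine synthase and not a ribosome assembly factor. With only the 4 arrays compared 1 gene of the list fell, and with any 1 of the 4 arrays left out none did. None of 40 cytosolic ribosomal protein genes passed, with a median of 0.10 and 33 positive changes, and none did with a replicate block. Myc itself had 431 and 468 at 12 h and 599.5 and 397 at 6 h, so the times overlapped, with a change of -0.11 (95% interval -0.57 to 0.35, adjusted p = 0.816).

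Of 38 splicing factors 2 fell and none rose, with a median of -0.27; 5 fell with a replicate block, and none with only the 4 arrays compared or with any 1 of them left out. Testing all named probe sets, 92 in this list, gave 1 rise and no fall. Rbmx, an RNA-binding protein of the splicing machinery, had 129 and 217.5 at 12 h, against 569.6 and 389 at 6 h. Its change was -1.33 (SE 0.26, adjusted p = 0.0387 in limma). Hnrnpu, a nuclear scaffold RNA-binding protein, had a change of -0.87. Other probe sets of Hnrnpu changed by -0.68 and -0.32 and were not called (adjusted p = 0.192 and 0.521 in limma). The importin beta gene Kpnb1 was the 1 of 34 nuclear pore and transport genes that fell, and the list's median was -0.20. A replicate block gave 2 falls in that list, but Kpnb1 was called in 5 of 15 alternatives only. Of 8 high mobility group genes Hmga2 and Hmgb3 fell and none rose, although the list's median was 0.01. For these 8 a replicate block gave 3 falls, and only the 4 arrays compared gave none. Hmga2, which binds AT-rich DNA and is abundant in embryonic and tumour cells, had 988.5 and 698 at 12 h, against 2202.5 and 1577 at 6 h, a change of -1.14 (SE 0.22, adjusted p = 0.0381 in limma). In raw signal the 6 h arrays of Hmga2 differed by more than its 12 h arrays did, yet both 6 h arrays lay above both 12 h arrays. Other probe sets of Hmga2 changed by -0.97 (adjusted p = 0.0382 in limma) and by -0.64, which was not called (adjusted p = 0.189). H1f10, a linker histone variant, was the 1 of 8 linker and variant histone genes that rose. It had 867 and 728 at 12 h and 257 and 394 at 6 h. For that list a replicate block gave 2 rises, and only the 4 arrays compared gave none.

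**Figure D3:**
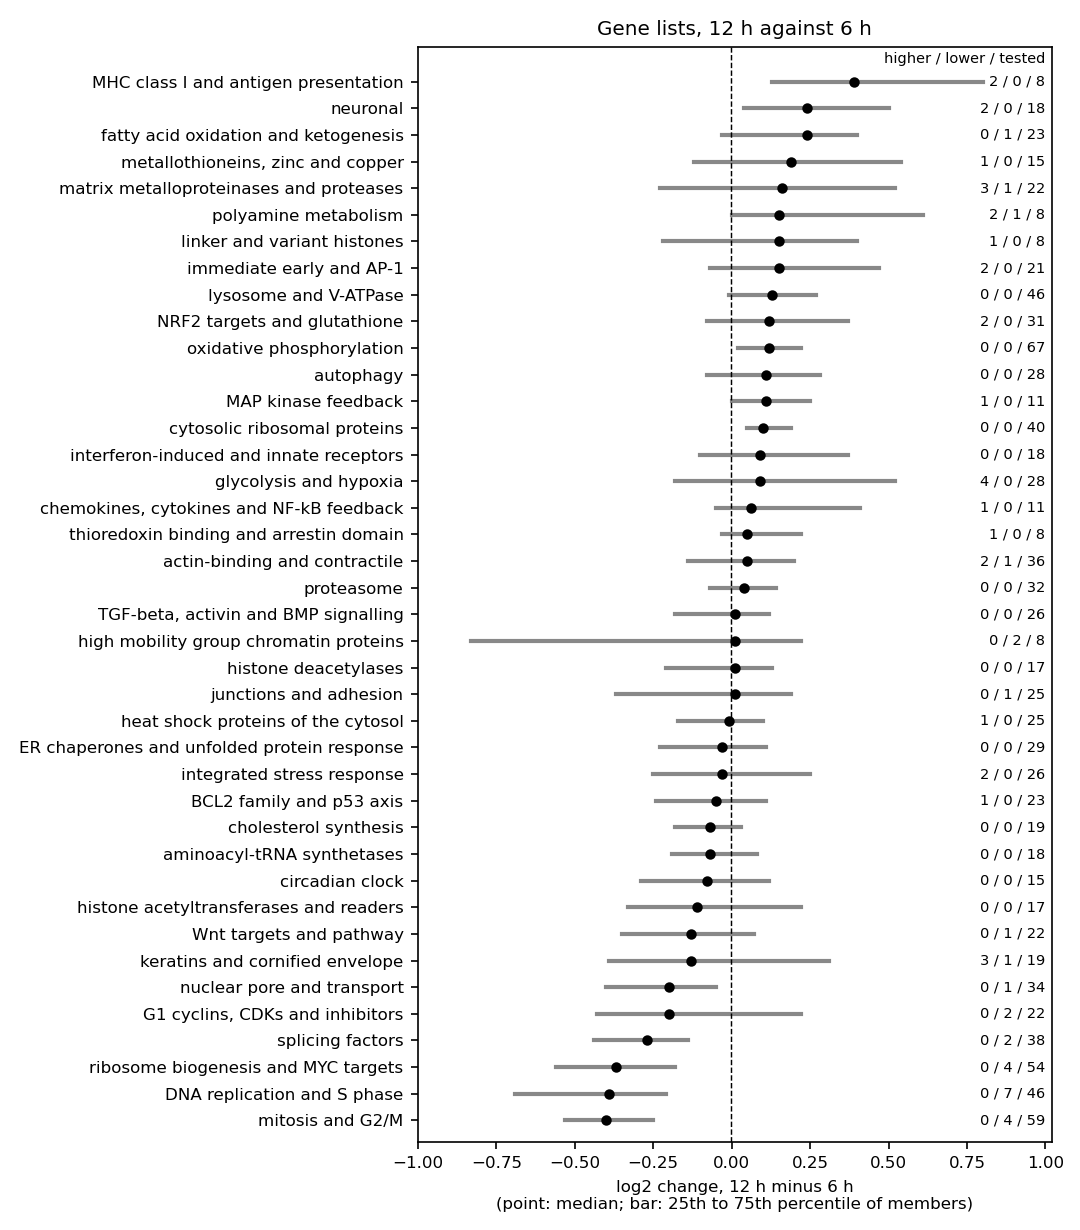
Log2 change, 12 h minus 6 h, in the gene lists with at least 8 tested genes, ordered by median; points are medians, bars run from the 25th to the 75th percentile of the list's genes, and the dashed line is the median of all tested genes. Numbers at the right give the genes called higher, called lower and tested; the lists of mitosis, DNA replication and ribosome biogenesis have medians of -0.40, -0.39 and -0.37.

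Krt20, the keratin of mature colonocytes, had signals of 8086 and 8046 at 12 h, against 2994 and 3949 at 6 h. Its rise was 1.22 (SE 0.22, adjusted p = 0.0289 in limma). The other 2 tested colonocyte markers, Car2 and Cdx2, had negative changes that were not called, and the median of the 3 was -0.20. Car2 had 4668 and 4627 at 12 h, against 5202 and 5479 at 6 h. In the list of keratins and cornified envelope proteins 3 of 19 rose, namely Krt20, the small proline-rich protein Sprr2h at 1.07 and the desmosomal plakophilin Pkp1 at 1.06. The cross-linking transglutaminase Tgm1 fell, with 431 and 482 at 12 h against 781.5 and 1046 at 6 h, and the list's median was -0.13. The epithelial integrin subunit Itgb6 had 34.0 and 34.3 at 12 h and 117 and 101.5 at 6 h, a change of -1.09. It was tested only because its 0 h arrays, at 207 and 273, passed the filter. Its other probe set changed by -0.34 with overlapping times and was not called (adjusted p = 0.522 in limma). Vim, the intermediate filament gene of mesenchymal cells, rose by 1.36. Its signals were 101 and 103 at 12 h and 28.1 and 13.1 at 6 h, all below the median of the data set. Vim was tested only because its 24 h arrays, at 314 and 318, passed the filter. The other probe set of Vim changed by 0.60 and was not called (adjusted p = 0.137 in limma). Over 9 mesenchymal markers the summed signal was 683 and 591 at 12 h and 517 and 558 at 6 h, and 1 of the 9, Acta2, was above the median signal on each array. Itgb2, an integrin subunit best known from leukocytes, fell by 1.15, with 505 and 481 at 12 h and 1254 and 1024.5 at 6 h, while the immune markers together were at 394 and 471 at 12 h and 373 and 360.3 at 6 h. The part of other cell types in these changes was not tested.

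Ddit3, the transcription factor CHOP of the integrated stress response, had signals of 3168 and 3939.5 at 12 h, against 1129 and 1512.5 at 6 h, a rise of 1.41 (SE 0.21, adjusted p = 0.0194 in limma). Together with Cth, an enzyme of cysteine synthesis, it made 2 rises among 26 tested genes of that response, whose median was -0.03. A replicate block gave 3 rises and 1 fall, and only the 4 arrays compared gave 1 rise. Nr4a1, an orphan nuclear receptor induced by growth signals, had 3668 and 3531.5 at 12 h and 1559 and 1442 at 6 h, a rise of 1.25 (SE 0.16, adjusted p = 0.0129). Nr4a1 and Ier3, a survival factor, were the 2 rises among 21 immediate early and AP-1 genes (median 0.15). In that list 4 rose with a replicate block, and 1 rose with only the 4 arrays compared. Dusp1, the phosphatase that switches off MAP kinases, had 4119 and 4600 at 12 h, against 2240.5 and 2373 at 6 h. Fos had 2425 and 1778 at 12 h and 937 and 1232 at 6 h; its change of 0.93 (95% interval 0.44 to 1.42) missed the threshold at an adjusted p of 0.0597, passed it with a replicate block at 0.0455, and ranged from 0.0334 to 0.244 over the alternatives. Egr1 had 5079 and 4807 at 12 h and 6391 and 6002 at 6 h, a change of -0.32 that did not pass (adjusted p = 0.294).

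Txnip, which binds thioredoxin and restrains glucose uptake, rose by 1.31 (SE 0.19, adjusted p = 0.0177 in limma), with 6142 and 7215 at 12 h and 2323 and 3040.2 at 6 h. Metallothionein Mt1, a binder of zinc and copper, had 7899 and 8568 at 12 h, against 3399.6 and 3479 at 6 h, and the small heat shock protein Hspb1 rose by 0.82. Both the quinone reductase Nqo1 and the glutathione synthetase Gss, enzymes of antioxidant defence, rose, by 0.89 and 0.92. They were 2 of 31 tested NRF2 targets and glutathione genes (median 0.12). For that list a replicate block gave 2 rises and 1 fall, and only the 4 arrays compared gave none. Of 8 tested genes of polyamine metabolism 2 rose and 1 fell, with a median of 0.15. Sat1, the acetyltransferase that starts the breakdown of polyamines, had 7602.5 and 8221 at 12 h and 3345 and 3414 at 6 h, and Arg2, a mitochondrial arginase that makes their precursor ornithine, had 588 and 629 at 12 h, against 221 and 267 at 6 h. Both rose by 1.22 (adjusted p = 0.0141 for Sat1 and 0.0163 for Arg2 in limma), while Srm, the spermidine synthase, fell by 0.86.

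In the list of glycolysis and hypoxia 4 of 28 tested genes rose, 1 glycolytic enzyme and 3 genes known from low oxygen, and none fell. The change was negative in 10 of the 28, and the median was 0.09. With a replicate block 6 rose, and with only the 4 arrays compared 2 rose. Pfkp, a phosphofructokinase subunit, had 430.3 and 422 at 12 h, against 149 and 167 at 6 h, a rise of 1.27 (SE 0.16, adjusted p = 0.0129). Ndrg1, induced by low oxygen and in differentiating cells, had 3408 and 3169.6 at 12 h and 1443 and 1508 at 6 h. Egln3, a prolyl hydroxylase that marks hypoxia-inducible factors for degradation, and Bnip3, a mitochondrial protein of mitophagy, rose by 0.97 and 0.82. Creatine kinase Ckb, which buffers ATP, had 2148 and 1826 at 12 h, against 723 and 702 at 6 h, a rise of 1.43 (SE 0.17, adjusted p = 0.00979), and Adssl1, an enzyme of AMP synthesis, rose by 1.46. Etfrf1, a regulator of the electron transfer flavoprotein, and Hacd4, an enzyme of very-long-chain fatty acid synthesis, rose by 1.32 and 1.33. Acsl5, a fatty acyl-CoA synthetase, had 633 and 695.5 at 12 h and 1235 and 1332 at 6 h and was the 1 of 23 fatty acid oxidation and ketogenesis genes that fell. That list's median was 0.24, and none of it rose. A replicate block gave 2 rises beside the 1 fall, and none passed with only the 4 arrays compared. None of 67 oxidative phosphorylation genes passed (median 0.12), while Ndufaf4, an assembly factor of complex I, fell by 1.25. The other probe set of Ndufaf4 changed by -0.41 with overlapping times and was not called (adjusted p = 0.566 in limma).

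Neural cell adhesion molecule Ncam1 and the small neuronal protein gene Bex2 were the 2 rises among 18 neuronal genes, whose median was 0.24. Ncam1 had 624 and 581.5 at 12 h, against 269 and 330.2 at 6 h. Its other probe sets changed by 0.64 and 0.61 and were not called (adjusted p = 0.337 and 0.103 in limma). Neither Ncam1 nor Bex2 was called with only the 4 arrays compared. Among the remaining large falls, the granzyme inhibitor Serpinb9 had 375.0 and 519.8 at 12 h and 1208 and 1040.5 at 6 h. The metalloproteinase Adam12 had 104 and 138 at 12 h, against 305 and 369 at 6 h, and the proprotein convertase Pcsk6 had 272 and 251 at 12 h and 696 and 534 at 6 h. All 3, like every called gene, were separate between the times, with changes of -1.28, -1.27 and -1.13. The other probe set of Adam12 changed by -0.38 and was not called (adjusted p = 0.594 in limma).

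Neither a main deacetylase gene nor a main butyrate transporter gene passed the test. Hdac1, a histone deacetylase, had 1896 and 1683 at 12 h, against 1503 and 1101 at 6 h, a change of 0.46 (95% interval 0.04 to 0.89, adjusted p = 0.225). Slc16a1, a monocarboxylate transporter that takes up butyrate, had 3358 and 2891 at 12 h and 3994 and 4325 at 6 h, a change of -0.41 (95% interval -0.78 to -0.04, adjusted p = 0.215). Of the 3 tested genes of butyrate carriers and receptors none passed, and the other 2 had positive changes with separate times, 0.50 for Bsg, the chaperone of such transporters (adjusted p = 0.207), and 0.60 for the efflux pump Abcg2 (adjusted p = 0.284). Gsn, the actin-severing gelsolin, had 6175 and 8187 at 12 h and 8368 and 5996 at 6 h, with overlapping times and a change of 0.01 (95% interval -0.55 to 0.56). These intervals, which are not adjusted for the number of genes, do not show that the genes were unchanged. No gene of the lists of 17 histone deacetylases, 32 proteasome subunits, 46 lysosomal genes, 28 autophagy genes, 29 endoplasmic reticulum chaperones, 19 cholesterol synthesis genes or 18 aminoacyl-tRNA synthetases passed the test in limma. With a replicate block 2 of the deacetylases, 1 chaperone and 1 synthetase fell, and 1 lysosomal, 1 autophagy and 1 cholesterol gene rose.

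Levels at 24 h place these values on the course of treatment. The 24 h comparison with 12 h shares the 12 h arrays, so the values are given side by side. Mmp10 averaged 105 ± 74.4, 832 ± 182 and 2715 ± 452 at 6, 12 and 24 h (SD, n = 2 arrays each), and H2-K1 averaged 789 ± 159, 2351 ± 462 and 5669 ± 858. Ccnd1 averaged 5772 ± 277, 1465 ± 84.0 and 816 ± 43.3, and Mcm5 948 ± 16.9, 375 ± 40.4 and 116 ± 10.2. Klk10 had averages of 277, 62.0 and 68.4 at these times. A contrast of the change over 6 to 12 h with the change over 12 to 24 h, fitted on the same 6 arrays, passed the test in none of 7340 genes, 0%, with a smallest adjusted p of 0.368 in limma. At an unadjusted p under 0.05 in limma there were 558 genes, 7.6% of those tested. In 297 the level at 12 h was above the middle of the course and in 261 below. That middle is the mean of the 6 h and 24 h levels on the log2 scale. No gene can therefore be named as changing by a different amount in the 2 intervals, and the design leaves 3 residual degrees of freedom for that contrast. The intervals, 6 to 12 h and 12 to 24 h, differ in length, so the rate of change per hour was not tested.

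**Figure D4:**
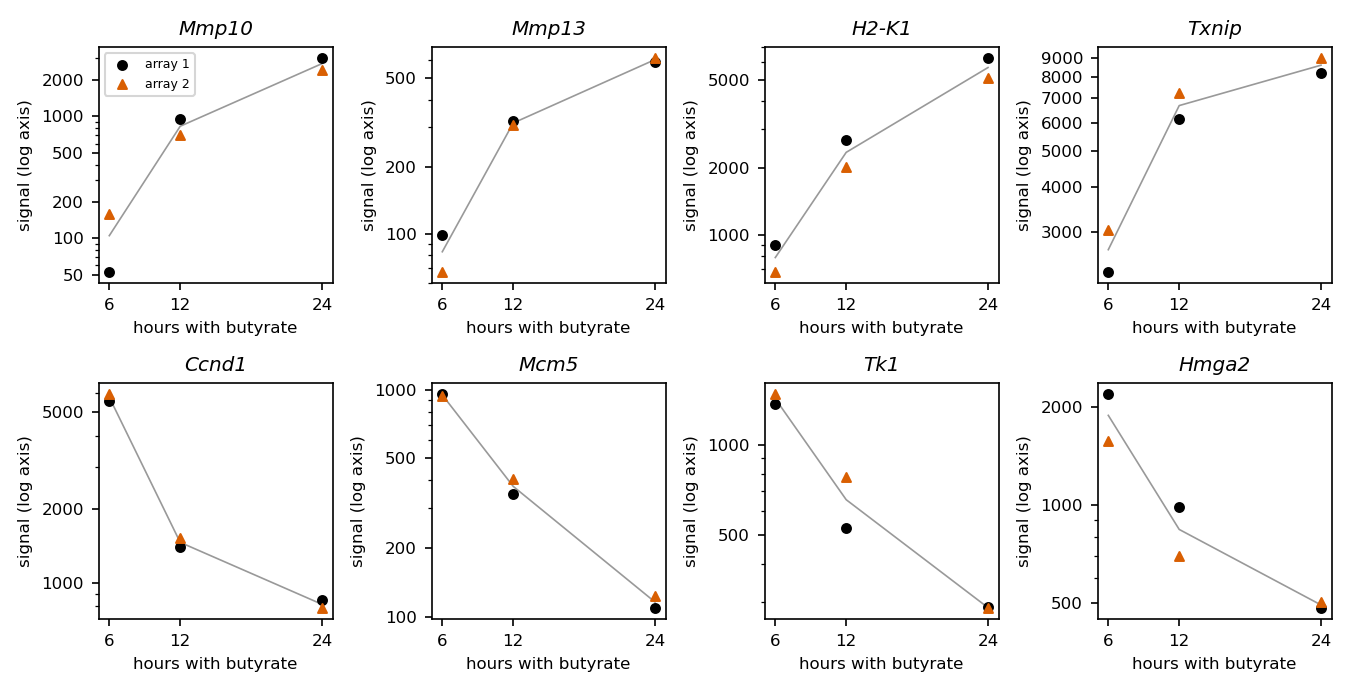
Signal (vertical log axes) at 6, 12 and 24 h of butyrate for 4 genes that rose between 6 h and 12 h (Mmp10, Mmp13, H2-K1 and Txnip) and 4 that fell (Ccnd1, Mcm5, Tk1 and Hmga2). Circles are array 1 and triangles array 2 of each time, and lines join the means of the 2 arrays. In all 8 genes, as in every called gene, the arrays at 12 h and at 6 h are separate.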

How the data were processed

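RNA of MCE301 cells was hybridised to Affymetrix arrays, 2 each at 0, 6, 12 and 24 h of butyrate. The deposited values are 1 signal intensity per probe set on a linear scale, made by the authors; no source used here names the summarising software, and per the values each array was scaled to a trimmed mean of 500.2. Probe sets were named through the platform annotation: of 22690, 20380 have 1 gene, 691 several and 1555 none, and 64 control sets were left out. A set passed if its signal exceeded the overall median, 144.7, on 2 or more of the 8 arrays, and the set brightest on average over those 8 arrays stood for its gene, which left 7340 genes from 11505 sets. Where a called gene had other kept sets, 80 of 83 changed in the same direction and none of the 3 opposite ones was called. Direction was counted without regard to size or call, and many of the 80 did not pass the test themselves. A set of Tspan8, for example, changed by -0.11 (adjusted p = 0.83 in limma with all named sets tested).

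Values of log2(signal + 32) were fitted with limma 3.58.1 in R 4.3.3 over the 6 treated arrays without a block, and the code was tested on simulated data. The replicate numbers pair the arrays by the data: the difference of array 1 and array 2 correlated between times at 0.125 to 0.382 in all 6 pairs of times, 0.382 for 12 h and 6 h. Alternatives changed the pseudocount, filter, scaling, arrays fitted, block, variance model, probe set rule and threshold, and left out each array. Genes were named by a rule: the 15 largest rises and falls among called genes with separate arrays and a group mean of at least 200, passing over predicted and clone names; up to 4 called genes per list and direction; and fixed genes, of which Alpl and H1f0 did not pass the filter. Genes named outside the rule are Mcm3, Mcm4, Mcm6, Pttg1 and the genes of the closing section, chosen after their values were seen, and list members or markers. The comparison, lists and rule were chosen with earlier results of these data known. Promoters came from RefSeq (GRCm38.p6), which had an entry for 152 of the 190 called genes.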

Additional observations from a re-analysis of the deposited data

How the results depend on the processing

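The main counts were 106 genes higher and 84 lower at 12 h. They moved by more than 1.5 times as follows: 0 and 0 without the filter on low signals, 32 and 14 with only the 4 arrays compared, 233 and 260 with a replicate block, 62 and 28 when at least 2-fold was also required, and 8 and 2 at an adjusted p under 0.01. The genes lower at 12 h alone moved by that much with all 8 arrays, to 157, and with a trend and robust variance model, to 133. Leaving out 1 of the 4 arrays gave 9 to 44 genes higher and 5 to 11 lower. Other pseudocounts (16 and 64), a stricter filter, quantile normalization, median centring and testing all named probe sets kept both counts within 1.5 times. The contrast of the 2 intervals called 0 genes throughout, except 6 with a level below the middle of the course without 12 h array 1 and 1 without 12 h array 2. Among the genes named, 2 uncalled changes turned direction, that of Myc without 6 h array 1, at 0.17 (-0.39 to 0.17 with 1 array left out), and that of Gsn with quantile normalization, at -0.10, and without 12 h array 2 or 6 h array 2 (-0.23 to 0.24 with 1 array left out). The median change of all genes was -0.003 here and 0.034 with median centring. The causes of these shifts were not tested. With 2 arrays a time the standard error of a log2 change was 0.18 at the median, and 29 of 119 genes with a change of at least 1 in size were not called.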

Other observations

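Of the 190 called genes 132 are in none of the lists, and the following were picked after their values were seen. Nos3, the endothelial nitric oxide synthase, had signals of 1060 and 1183 at 12 h, against 461 and 490.0 at 6 h, a rise of 1.18 (SE 0.17, adjusted p = 0.0177 in limma). Gch1, the first enzyme in the synthesis of the cofactor tetrahydrobiopterin that nitric oxide synthases need, had 930.1 and 1026 at 12 h and 452 and 363.5 at 6 h, a rise of 1.21 (adjusted p = 0.0181). Ptgs2, the inducible cyclooxygenase, rose by 1.21 (adjusted p = 0.0276), with averages of 1379 ± 257, 3232 ± 567 and 2450 ± 306 at 6, 12 and 24 h (SD, n = 2 arrays each). The cytokine gene Il24 rose by 0.96, with 1386.5 and 1196 at 12 h and 625 and 664 at 6 h. The aldehyde dehydrogenase genes Aldh1a1, Aldh2 and Aldh6a1 rose by 1.22, 1.14 and 0.99. As in all 190 called genes, the times were separate in each of these.

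Among falls outside the lists, Exo1, an exonuclease of DNA repair, changed by -0.96, and Dtl, a substrate receptor of the ubiquitin ligase that degrades replication licensing factors, by -0.94 (adjusted p = 0.0365 and 0.0416 in limma). Single genes of chromatin regulators fell, while none of the 17 histone deacetylases or 17 acetyltransferases and readers passed the test. Mbd3, a subunit of the NuRD deacetylase complex, had 157 ± 1.48 at 12 h and 349 ± 8.91 at 6 h, Carm1, an arginine methyltransferase, had 410 ± 40.8 at 12 h and 848 ± 89.7 at 6 h, and Bmi1, a Polycomb subunit, had 462 ± 51.2 at 12 h and 926 ± 194 at 6 h (SD, n = 2 arrays each). Of epithelial surface genes, the serine protease Tmprss2 fell by 0.99 and the tetraspanin Tspan8 by 0.82, and the Ets factor Etv4 fell by 0.85.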
